A study of Mus musculus with 3 samples.

Results

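The genes described here encode the proteins of the cytosolic ribosome, and they were taken by symbol: names that begin with Rpl, Rps or Rplp and a digit, without the Rps6k kinases. The rule took 94 of the 24421 genes listed in each count file. They were 46 genes of the large subunit, 30 of the small subunit, 9 paralogs of subunit genes, 7 numbered copies whose names end in "-ps" and a number, the retrocopy Rpl37rt, and Rps19bp1, which encodes a binding partner of Rps19 and no ribosomal protein. Subunit genes are below the 76 genes of both subunits. The name rule leaves out some subunit genes, and of these Rpsa, Fau and Gnb2l1 are given near the end.

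RNA of hematopoietic stem and progenitor cells was sequenced in 3 control libraries, named 1 to 3 by their replicate numbers. The cells came from the bone marrow of C57BL/6 mice labelled Cicflox/flox + tamoxifen, a genotype with loxP sites around both alleles of the repressor gene Capicua and no Cre named in the label. They were sorted as c-Kit+ Sca-1+ cells that lacked the T cell markers CD4 and CD8a, the myeloid markers CD11b and Gr-1, the B cell marker B220 and the erythroid marker Ter119. The series also concerns another mouse group, which was not analysed here, so all values are from control cells. No label says whether each library is a separate animal, so the spread between libraries, on which every SD and p-value below rests, may be technical.

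A ribosome is built from a large and a small subunit, each a scaffold of ribosomal RNA covered with many small proteins, and in general each protein is present once per ribosome. Vertebrate ribosomal protein messengers often begin with a run of pyrimidines, the terminal oligopyrimidine (TOP) motif, through which mTOR signalling controls their translation together. In blood formation these genes are known from Diamond-Blackfan anaemia, in which 1 copy of a subunit gene is lost, from the 5q deletion that removes RPS14, and from mutations in T cell leukaemia.

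Depth was 30718562 gene counts in library 1, 25097769 in library 2 and 30032593 in library 3. Levels are given in CPM, a gene's counts scaled to a fixed total of gene counts, as mean ± SD (n = 3). With 3 counts taken as the floor, no count in a library allows a level of 0.0977 to 0.120 CPM, and floors and intervals cover counting error only, since amplified reads are not independent molecules. The genes of the sort markers were present: Kit (c-Kit) at 826 ± 71.0 CPM, Ly6a (Sca-1) at 103 ± 9.50 CPM. Of 6 measured genes for lineage or erythroid markers, Cd8a was lowest at 0.349 CPM and Ptprc, which encodes all forms of CD45 and not B220 alone, was highest at 357 CPM. Itgam (CD11b), a marker the cells were sorted to lack, was at 138 ± 8.82 CPM, above Ly6a. No gene of Gr-1 was among the 6. Rn45s, the ribosomal RNA precursor, took 11.8%, 8.20% and 7.91% of gene counts in libraries 1, 2 and 3. In bulk RNA, fewer cells of a type and less RNA per cell cannot be told apart.

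The sequences around the annotated starts show the pyrimidine runs that many of these genes share. RefSeq starts (build GRCm38.p6) were at hand for 56 of the 76 subunit genes. Below, 5 abundant genes (Rpl4, Rps6, Rpl10a, Rps24 and Rpl15) carry a run, the abundant Rpl10 and Rps4x carry none, and Rps27, Rpl34 and Rpl26 are subunit genes with almost no counts. Each sequence is written 5′ to 3′ on the gene's strand and holds 30 bases before the start and 10 bases from it. Capitals mark the longest run of 5 or more pyrimidines that begins with C.
Rpl4: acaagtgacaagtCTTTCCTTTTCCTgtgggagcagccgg
Rps6: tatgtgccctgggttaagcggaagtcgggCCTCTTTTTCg
Rpl10a: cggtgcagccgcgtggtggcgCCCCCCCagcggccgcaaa
Rps24: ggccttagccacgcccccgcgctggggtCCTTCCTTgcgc
Rpl15: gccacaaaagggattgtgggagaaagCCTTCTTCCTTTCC
Rpl10: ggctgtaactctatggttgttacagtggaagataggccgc
Rps4x: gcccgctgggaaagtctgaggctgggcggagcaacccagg
Rps27: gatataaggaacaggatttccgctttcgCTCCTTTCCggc
Rpl34: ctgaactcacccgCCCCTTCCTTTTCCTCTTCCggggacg
Rpl26: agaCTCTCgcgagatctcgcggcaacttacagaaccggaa

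These windows lie at chr9:64173357-64173396 (Rpl4, plus strand), chr4:86857358-86857397 (Rps6, minus strand), chr17:28328441-28328480 (Rpl10a, plus strand), chr14:24490648-24490687 (Rps24, plus strand) and chr14:18270977-18271016 (Rpl15, minus strand). The others lie at chrX:74270786-74270825 (Rpl10, plus strand), chrX:102189382-102189421 (Rps4x, minus strand), chr3:90213639-90213678 (Rps27, minus strand), chr3:130730328-130730367 (Rpl34, minus strand) and chr11:68901536-68901575 (Rpl26, plus strand). Rpl10a, Rps24 and Rpl34 have a further RefSeq start each, which is not shown. For Rpl10a the run shown has 7 bases and the window at the further start has none, and for Rpl34 the run shown has 20 bases and that at the further start has 8. The run of Rps6 began 1 base before the annotated start, that of Rps27 2 bases before it and that of Rpl4 17 bases before it.

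Over all 56 genes, a run of at least 8 pyrimidines led by C within 30 bases on either side of a start was found in 31 (55.4%), against 20.6% of 27025 genes with a RefSeq start and 21.7% of those at 1 CPM or more. The share was 58.8% in the large and 50.0% in the small subunit, and 25.0% in the genes of mitochondrial ribosomal proteins, which belong to a separate ribosome. A shorter run, C and at least 4 pyrimidines beginning at the annotated start itself, was found in 13 of 56 (23.2%), against 3.01% of all genes and 0 of 68 mitochondrial ribosomal protein genes. The search covered the gene's strand only. Genes with the longer run lay at a median of 530.1 CPM (n = 29) and those without it at 501 CPM (n = 24), counting genes of at least 1 CPM.

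The 300-base promoter sequences, from 250 bases before a start to 50 after it, were also searched on both strands for 3 short motifs. CCGGAAG, the core bound by the ETS factor GABPA, was in 41.1% of the 56 genes, against 9.93% of all genes, 19.9% of genes at 1 CPM or more and 36.8% of mitochondrial ribosomal protein genes. AAGATGG, the core bound by YY1, was in 16.1%, against 7.28% of all genes, 8.47% of genes at 1 CPM or more and 19.1% of mitochondrial ribosomal protein genes. TATAAA, the TATA box core, was in 10.7%, against 15.7% of all genes and 8.68% of those at 1 CPM or more. The ETS and YY1 cores can overlap in the letters AAG, and a match is a description of the letters only.

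Together the 94 genes held 4.99 ± 0.637% of all gene counts (SD, n = 3). Subunit genes held 4.30%, 4.97% and 5.56% of gene counts in libraries 1, 2 and 3, with exact Clopper-Pearson 95% intervals of 4.29 to 4.31%, 4.96 to 4.98% and 5.55 to 5.57%. The 18 other genes held 0.879 ± 0.0130% of the counts of the 94. The subunit genes lay on 19 chromosomes, and 14 of them lay on chromosome 7. Of the 76 subunit genes 72 reached 1 CPM (94.7%), and the median subunit gene lay at 492 CPM, against 21.6 CPM for the median mitochondrial ribosomal protein gene, all 77 of which reached 1 CPM.

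**Figure D1:**
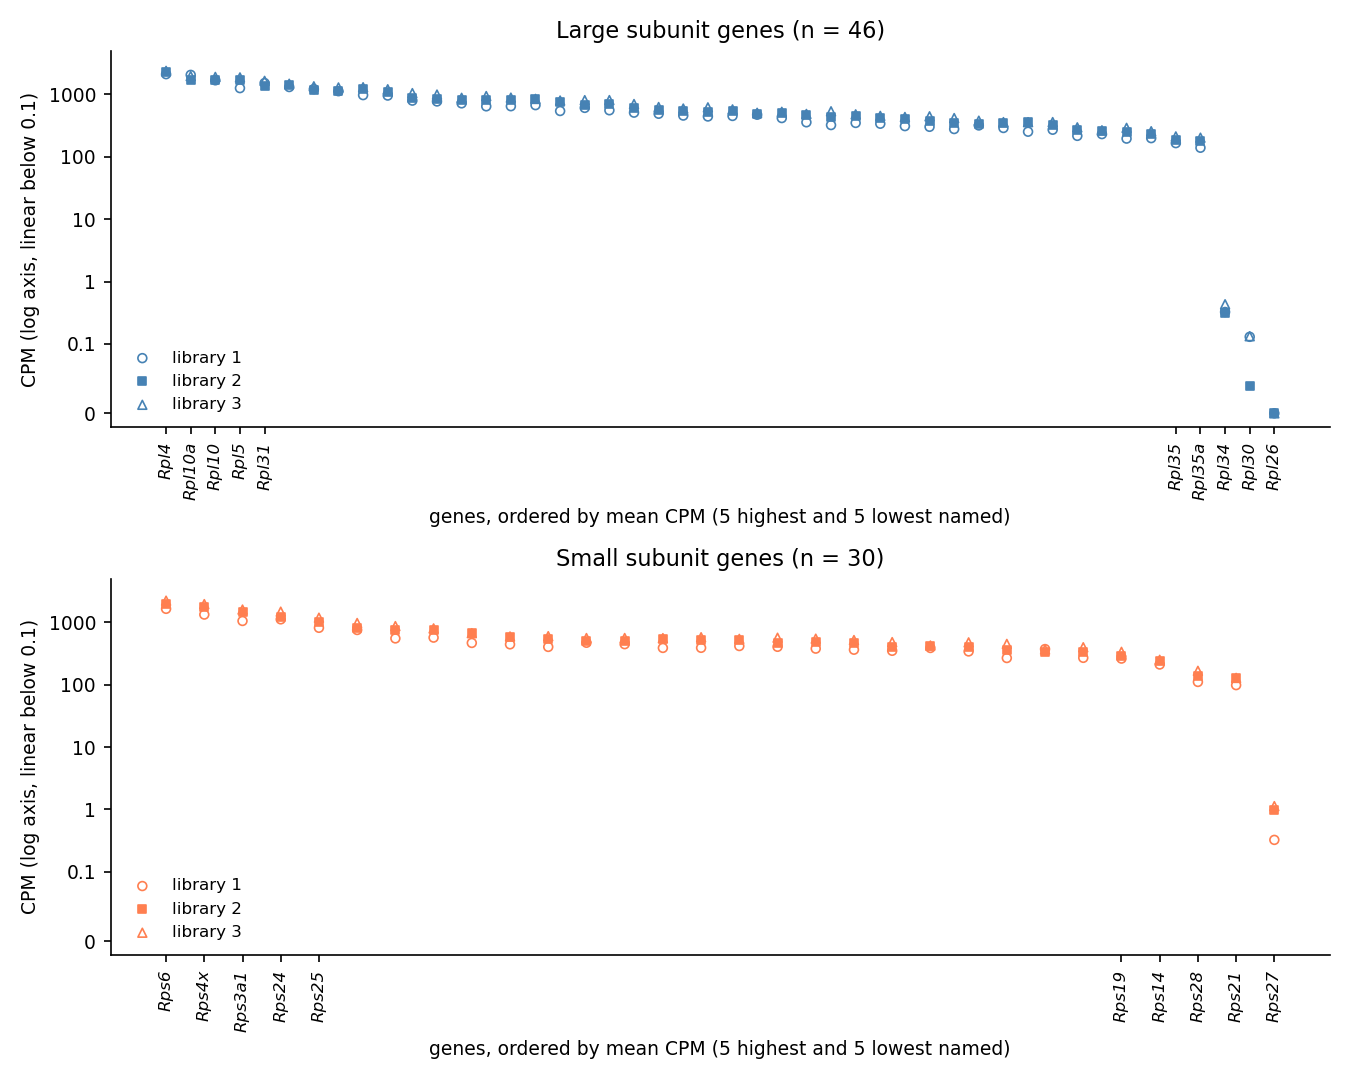
CPM (log axis, linear below 0.1) of the large subunit genes (upper panel, n = 46) and small subunit genes (lower panel, n = 30) in each library, ordered by mean; every point is 1 library, and names are given for the 5 highest and 5 lowest genes of each panel. All but 4 genes lie between 98.3 and 2379 CPM, and Rpl34, Rpl30, Rpl26 and Rps27 lie far below.

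In the large subunit, Rpl4, whose loop lines the tunnel through which the new peptide leaves, was highest, with 2107, 2252 and 2379 CPM in libraries 1, 2 and 3. Rpl10a, part of the mobile stalk near the exit site of transfer RNA, had 2052, 1705 and 1962 CPM. Rpl10, which joins late in assembly and sits near the peptidyl transferase centre, had 1681, 1691 and 1903 CPM. The order of these 3 genes was the same in every library, but Rpl10a and Rpl10 almost met in library 2. Rpl5 was at 1603 ± 312 CPM, and Rpl31, at the tunnel exit, at 1514 ± 132 CPM. The lowest large subunit genes with counts of note were Rpl35a at 174 ± 31.9 CPM and Rpl35 at 187 ± 23.5 CPM.

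In the small subunit, Rps6, the substrate of the S6 kinases, was highest, with 1642, 1983 and 2218 CPM. Rps4x, which is X-linked, had 1329, 1731 and 1954 CPM, and Rps3a1 had 1050, 1449 and 1599 CPM. All 3 were lowest in library 1 and highest in library 3, and each was lower than the one before it in every library. Rps24 was at 1265 ± 191 CPM, Rps25 at 997 ± 184 CPM and Rps23, a protein of the decoding centre, at 850.4 ± 113 CPM. At the low end were Rps14 at 234 ± 20.6 CPM, Rps28 at 138 ± 28.0 CPM and Rps21 at 118 ± 16.9 CPM. Rps21 ran from 98.3 to 128 CPM and Rps28 from 111 to 167 CPM, so their ranges overlapped, while Rps14 lay above both in every library.

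The large and small subunit genes differed little in level. The median of log2(CPM + 0.5) over the 46 large subunit genes minus that over the 30 small subunit genes was 0.20, 0.08 and 0.06 in libraries 1, 2 and 3, a mean of 0.11 (SD 0.07, n = 3). The sign was the same in all 3 libraries. No test was run, since an exact sign-flip test over 3 libraries cannot go below p = 0.25. The difference depended on the set and on length: it was 0.28 per kilobase of coding sequence and 0.53 per kilobase of annotated exons. It was -0.13 when paralogs and copies were put with the subunit of their name, and -0.47 without the 36 subunit genes whose annotated exons overlap another gene, a set chosen after the data were seen. Total counts of the large subunit were 1.74 ± 0.101 times those of the small subunit (1.85, 1.69 and 1.67 in libraries 1, 2 and 3), against a ratio of 1.53 in the number of genes.

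The messengers of the single proteins were unequal in level. CPM grows with length, so genes were also compared per kilobase of the median coding transcript, over the 72 genes at 1 CPM or more. On this scale levels ran from 133 in Rps20 to 2797 in Rpl10a, a 21.1-fold range, and the upper quartile was 2.10 times the lower. Per kilobase of coding sequence they ran from 421 in Rpl8 to 5229 in Rpl39, a 12.4-fold range. The coding sequence of Rpl39, at 153 bases, is among the shortest of the subunit genes, while its median transcript has 612 bases. The annotated transcripts weigh on the first scale: Rps15a has a median transcript of 5130 bases and a coding sequence of 390, and lay at 140.4 per kilobase of transcript and 1846 per kilobase of coding sequence. Across the 76 subunit genes, Spearman's rho of mean CPM with coding length was 0.53, a description over genes that share the same libraries. Median levels per kilobase of transcript were 766 in the large subunit and 623 in the small subunit, with the large subunit higher in all 3 libraries.

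**Figure D2:**
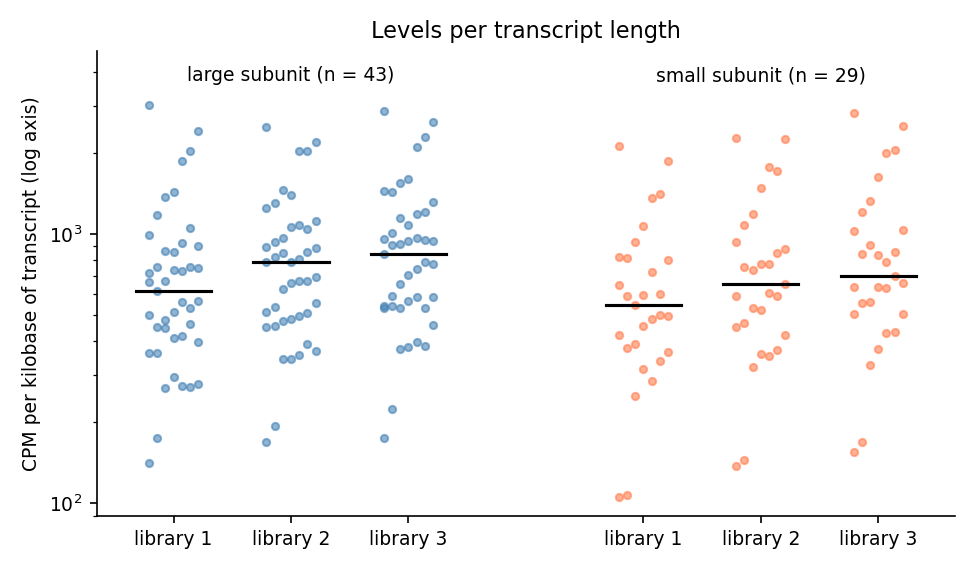
CPM per kilobase of the median coding transcript (log axis) of the large subunit genes (blue, n = 43) and small subunit genes (red, n = 29) at 1 CPM or more; each point is 1 gene and black bars are medians. The clouds of the 2 subunits overlap over almost their whole range in every library.

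Among the 94 genes, 5 had no count in any library: the large subunit gene Rpl26, the testis paralog Rpl10l, the copies Rpl34-ps1 and Rplp2-ps1, and Rps27rt. That is 5.32%, against 29.0% of all gene entries. No member was at 0 in only some of the libraries. Another 5 genes were counted but stayed under 1 CPM, which makes 10 of 94 (10.6%), against 46.9% of all gene entries.

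The missing or near-missing subunit genes stood far apart from the others. Rpl26 had 0 counts in each of the 3 libraries, Rpl30 had 4, 1 and 4 counts, Rpl34 had 10, 8 and 13, and Rps27 had 10, 25 and 34. Their means were 0, 0.101, 0.359 and 0.818 CPM. The next subunit gene upward was Rps21, at 144 times the level of Rps27. All 4 encode core proteins of the ribosome, Rpl26 near the tunnel exit and Rps27 as a zinc-binding protein of the small subunit, and RPL26 and RPS27 are Diamond-Blackfan genes. In mm10 coordinates of GENCODE M21, Rpl26 lies at chr11:68901583-68906989, Rpl30 at chr15:34440505-34443640, Rpl34 at chr3:130726831-130730398 and Rps27 at chr3:90212522-90213651.

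Subunit genes have many copied sequences in the genome, so the share of each gene's 50-base words that recur in another annotated gene was set beside its level. Over basic coding transcripts the median subunit gene shared 43.2% of its words, against 0.146% of all genes and 4.11% of mitochondrial ribosomal protein genes. Rpl26 shared 44.0%, Rpl30 72.8%, Rpl34 20.4% and Rps27 59.7%. Other genes shared as much and were abundant: Rpl5 shared 93.8% and lay at 1603 CPM, Rpl35 shared 95.1% and lay at 187 CPM, and Rps6 shared 84.6% and lay at 1948 CPM. All 11 subunit genes that shared over 80% reached 1 CPM, with a median of 688 CPM. Spearman's rho between shared words and mean CPM was 0.089 over the 76 genes.

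**Figure D3:**
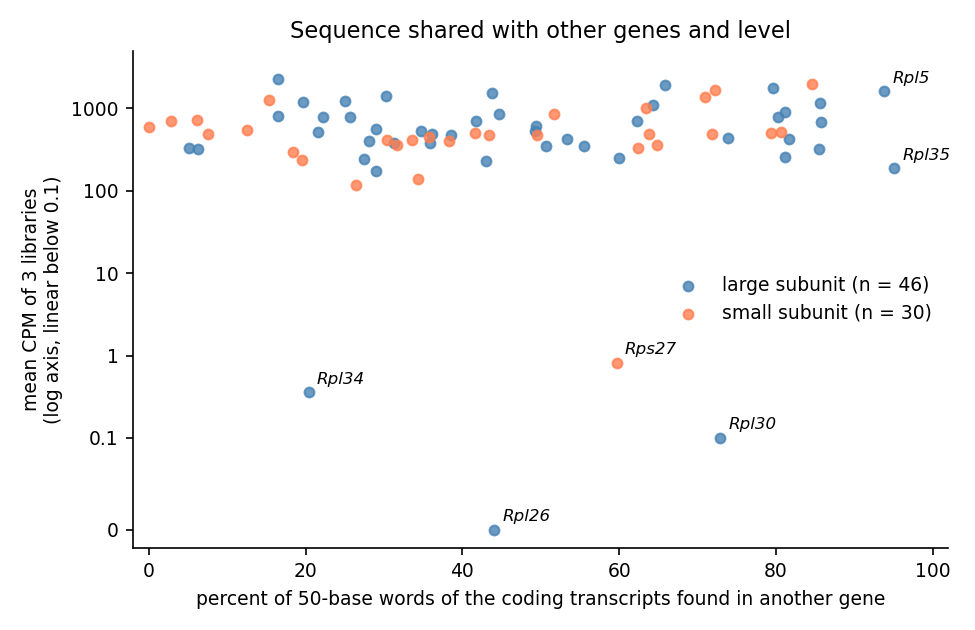
Mean CPM (log axis, linear below 0.1) against the percentage of 50-base words of the basic coding transcripts that occur in another annotated gene, 1 point per subunit gene (blue, large; red, small). The 4 genes under 1 CPM span 20.4 to 72.8% shared words, while Rpl5 and Rpl35 at 93.8 and 95.1% lie over 100 CPM.

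What the 4 low genes had in common was a close copy with an entry of its own in the count files, and that copy was at 0. Copies were taken as protein-coding genes or pseudogenes with at least 50% of their own words in the subunit gene, a measure chosen after the levels were seen. Gm15772, a processed pseudogene of Rpl26, shared 74.3% of its words with it, Gm12191 shared 83.3% with Rpl30, Rpl34-ps1 shared 71.5% with Rpl34, and Rps27rt shared 91.1% with Rps27. All 4 copies had 0 counts in all 3 libraries. Of the 72 subunit genes at 1 CPM or more, 3 had such a copy in the files, and none of these copies was at 0. Rpl14-ps1 shared 78.3% of its words with Rpl14 and had 338, 252 and 349 counts, Rpl31-ps12 shared 62.0% with Rpl31 and had 208, 204 and 271, and Rps15a-ps6 shared 55.2% with Rps15a and had 335, 374 and 361. Annotated pseudogenes, with or without an entry in the files, share words with many of the 72 as well, 26 of them with Rpl3, which lay at 1162 CPM. Non-unique alignments were 16.0 to 17.0% of all entries, and the files do not say which genes they came from. Rplp2-ps1, at 0 too, has no sequence in the annotation, so the words it shares with Rplp2, at 404 CPM, could not be measured. The part of these copies in the low counts was not tested.

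The remaining copies lay low. Rps15a-ps6 was at 12.6 ± 2.06 CPM, Rpl14-ps1 at 10.9 ± 0.796 CPM, Rps15a-ps4 at 9.44 ± 2.89 CPM, Rpl31-ps12 at 7.97 ± 1.13 CPM, Rps19-ps3 at 4.82 ± 1.10 CPM and Rpl37rt at 2.42 ± 0.488 CPM. Their counts are uncertain, since 35.5 to 78.3% of their words, over all annotated transcripts, occur in other genes. Rps19bp1, at 8.86 ± 1.98 CPM, shares none.

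Some paralogs of subunit genes encode proteins that can stand in for their parents, and their use differs between tissues. Rpl36al took 40.9%, 40.3% and 41.9% of the counts of its pair with Rpl36a, with levels of 222 ± 36.1 and 318 ± 44.5 CPM. Rpl22l1, the paralog of the T cell leukaemia gene Rpl22, took 19.4%, 18.1% and 20.4% of its pair. Rpl22l1 lay at 69.6, 76.5 and 92.4 CPM and Rpl22 at 289, 345 and 359.5 CPM, so both were lowest in library 1 and highest in library 3 and their ratio stayed close. Per kilobase of transcript the share of Rpl22l1 was 47.6 ± 1.86%, since the median Rpl22 transcript is long. Rpl22l1 shares 58.9% of its words with other genes, so its count is uncertain. The split between Rpl36al and Rpl36a is uncertain too, since Rpl36a shares 85.5% of its words and Rpl36al 22.1%.

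Rpl7l1 took 9.76%, 8.62% and 6.80% of its pair with Rpl7, at 38.1 ± 2.91 CPM against 429 ± 107 CPM. Rps27l, a known p53 target gene, was at 38.3 ± 7.43 CPM and took 98.0 ± 0.855% of its pair, a share set by the 10 to 34 counts of Rps27. Rps4l, which the annotation lists as a transcribed processed pseudogene with no coding sequence, took 0.0367%, 0.241% and 0.238% of its pair with Rps4x. It had 15 counts in library 1 and 105 and 140 in libraries 2 and 3, or 0.488, 4.18 and 4.66 CPM. Its counts differed between libraries by the chi-square test (adjusted p = 3.49e-22), and its spread did not pass the variability test of edgeR (p = 0.0141, adjusted p = 0.983). The muscle paralog Rpl3l had 7, 20 and 11 counts, the testis paralog Rpl39l had 3, 5 and 1, and Rpl10l and Rps27rt had none. Rpl3 and Rpl39, their parents, lay at 1162 ± 169.7 and 800.0 ± 81.2 CPM.

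**Figure D4:**
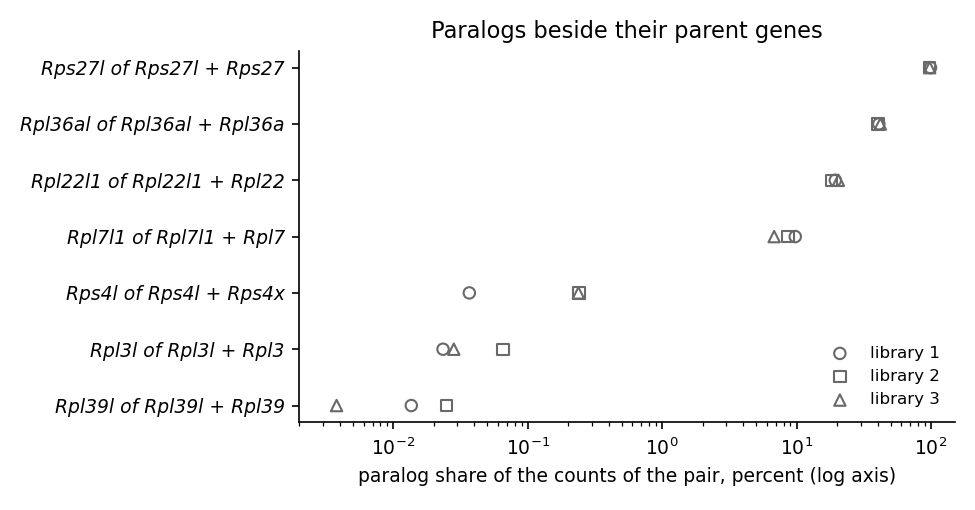
Share of each paralog in the counts of the pair with its parent gene, in percent (log axis), 1 symbol per library; Rpl10l and Rps27rt, with no counts, are not drawn. Rpl36al, Rpl22l1 and Rps27l keep nearly the same share in the 3 libraries, and Rps4l is lower in library 1.

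The subunit genes moved together between the control libraries. Shifts are log2(CPM + 0.5) in 1 library minus the mean of the other 2. In library 1 the median shift of the 72 genes at 1 CPM or more was -0.35, with 69 of 72 below 0, while the median of all 12965 genes at that level was -0.05, with 56.3% below 0. In library 3 the median was 0.29, with 72 of 72 above 0, against a median of 0.00 over all genes. In library 2 it was 0.05, the same as over all genes. The level was lowest in library 1 and highest in library 3 for 66 of the 72 genes (91.7%), against 22.8% of all genes. With TMM, DESeq2 size factors, totals without Rn45s and totals without the members, 68 to 70 of the 72 lay below 0 in library 1, against 48.5 to 58.2% of all genes, and in library 3 none of the 72 did, against 46.9 to 54.7% of all genes. The library 3 median was 0.16 when library 1 was left out and 0.42 without library 2, and the library 2 median was -0.16 without library 1 and 0.26 without library 3.

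Single genes moved by little. Only Rps12, at 268, 363 and 449.9 CPM, was lower in library 1 by at least 1.5-fold (shift -0.59), against 8.72% of all genes, and Rpl7, at 322, 429 and 536 CPM, lay just inside that limit (shift -0.57). That number was 5 without library 2 and 0 without library 3. The share of all genes in those settings is not given here, so these counts have no background. No subunit gene was higher in library 1 by 1.5-fold, against 5.19% of all genes. In library 2 none was lower (all genes 3.21%) or higher (5.05%), and in library 3 none was lower (4.49%) or higher (4.40%). Among the other members, Rps4l (shift -2.31) and Rps15a-ps4 (shift -0.78) were lower in library 1 past this limit. Among members at 5 CPM or more, the 5 of largest range in log2 level were Rps15a-ps4, Rps12, Rpl7, Rps15a at 551, 741 and 868 CPM, and Rps3a1, and all of them were lowest in library 1.

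**Figure D5:**
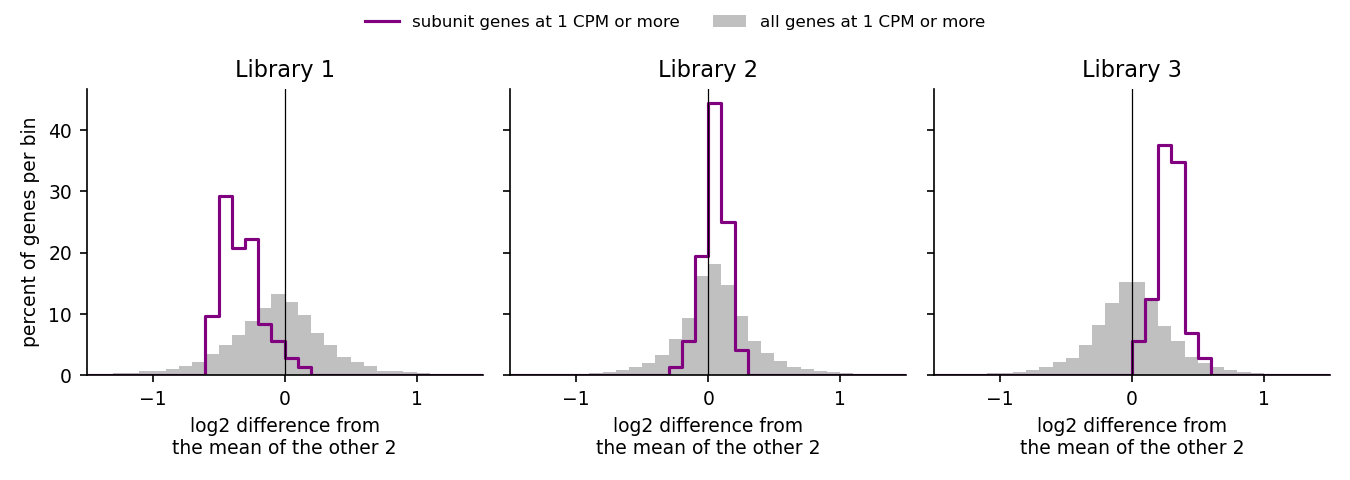
Distribution of the log2 shift of each gene in 1 library from the mean of the other 2 (bins of 0.1), for the 72 subunit genes (purple line) and all 12965 genes at 1 CPM or more (grey bars). The subunit genes sit left of 0 in library 1 and right of 0 in library 3, as a narrow group inside the spread of all genes.

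Counts of all 72 subunit genes differed between libraries beyond read-counting noise (chi-square test with 2 degrees of freedom, Benjamini-Hochberg adjusted over all genes), but so did 82.6% of all 12965 genes. Without library 1 it was 66 of 73, and 6660 of 12963 genes in all. With edgeR's test of spread over genes of like abundance, 0 of 72 passed after adjustment, against 0.00771% of all genes (1 gene, and 16 without library 1). At an unadjusted p under 0.05 it was 14 of 72 (19.4%), against 4.57% of all genes. The dispersion outliers of DESeq2 held 0 of the 72 genes.

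Scaling each gene to the total of the 72 subunit genes takes out their common movement by construction, and shows which genes departed from it. The median coefficient of variation (CV) over the 3 libraries was 15.0% for CPM, and 5.80% on this scale, on which 64 of the 72 genes had a CV under 10%. Rpl10a varied most on it, with 47740, 34328 and 35299 parts per 1000000 subunit counts. It was highest in library 1, against the direction of the set, and Rps12, with 6226, 7298 and 8094, was lowest there.

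Other values are given beside this shift. Rn45s was highest in library 1, and with it left out of the totals the median shift of the subunit genes in library 1 was -0.29. The 6 lineage and erythroid marker genes summed to 637, 654 and 697 CPM in libraries 1, 2 and 3. Among them the transferrin receptor gene Tfrc, at 113, 176 and 182 CPM, was lowest in library 1, and without it the other 5 summed to 524, 478 and 515 CPM, which does not follow the order of the subunit genes. Cd4 was highest in library 1, at 15.2, 5.02 and 6.69 CPM, while Ptprc (366, 344 and 361 CPM) and Itgam (141, 128 and 144 CPM) were lowest in library 2. The part of Rn45s and Tfrc in the shift was not tested. Genes with a median transcript under 500 bases that are no subunit genes had a median shift of -0.16 in library 1, and the 10 subunit genes of that length had -0.40. On the scale of the spike-in RNAs, an alternative added after the data were seen, all genes shifted by -1.01 in library 1 and 1.01 in library 3, and the subunit genes lay a further -0.33 and 0.31 from them. On that scale 72 of 72 lay below 0 in library 1, but so did 97.6% of all genes, and 0 of 72 in library 3, against 1.89% of all genes.

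All the lists of related function given here had median shifts on the same side as the subunit genes in libraries 1 and 3. In library 1 the assembly factor genes lay further from 0 than the subunit genes, whose median was -0.35. By the median, the elongation factor and RNA polymerase I genes lay nearest all genes in library 3. Nucleolar and assembly factor genes had a median shift of -0.47 in library 1, with 29 of 29 below 0 (all genes 56.3%), and mitochondrial ribosomal protein genes of -0.26, with 62 of 77 below 0. The median was -0.24 for TOP messenger genes outside the ribosome (13 of 13 below 0), -0.26 for RNA polymerase I genes (10 of 14) and -0.12 for elongation factor genes (8 of 8). In library 3 the medians were 0.30, 0.24, 0.21, 0.08 and 0.04 in the same order. There 2 of 29 assembly genes, 14 of 77 mitochondrial ribosomal protein genes, 0 of 13 TOP genes, 6 of 14 RNA polymerase I genes (42.9%) and 1 of 8 elongation factor genes lay below 0, against 49.2% of all genes. The order of lowest in library 1 and highest in library 3 held for 4 of the 14 RNA polymerase I genes (28.6%), near the 22.8% of all genes. Of the most abundant assembly genes, Ncl (nucleolin) lay at 1562 ± 272 CPM, Nop56, a core protein of methylation guides, at 543 ± 86.7 CPM, Dkc1 (dyskerin) at 268 ± 49.7 CPM and Nop58 at 258 ± 34.2 CPM, with Grwd1 at 14.1 ± 5.81 and Rrs1 at 12.3 ± 2.79 CPM lowest. Of the elongation factor genes, Eef1a1, whose product brings transfer RNA to the ribosome, had 5915, 6072 and 6085 CPM. Eef2, the translocase gene, was at 1773 ± 27.0 CPM, Eef1g at 1187 ± 174 CPM and Eef1b2 at 612 ± 117 CPM. This list was mixed in library 1. Shifts there were -0.03 in Eef2 and -0.04 in Eef1a1, but -0.34 in Eef1d, -0.39 in Eef1g and -0.49 in Eef1b2. Eif5a, Eef2k and Eef1e1 lay between, at -0.05, -0.08 and -0.16. Pabpc1, the poly(A)-binding protein gene, led the TOP list at 3132 ± 230 CPM, followed by Npm1 (nucleophosmin) at 2547 ± 169.7 CPM. Polr1a, which encodes the largest subunit of RNA polymerase I, was at 143 ± 18.3 CPM.

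Most genes linked to blood disease lay within the range of the other subunit genes. Of 20 Diamond-Blackfan anaemia genes, 18 reached 1 CPM, all but Rpl26 (0 CPM) and Rps27 (0.818 CPM), and the median of the 20 was 474 CPM, against 492 CPM over all 76. Rps19, the gene most often mutated in that disease, had 262, 288 and 336 CPM. It was lowest in library 1 and highest in library 3, and its mean of 295 ± 37.6 CPM was below the median. Rpl5 and Rpl11, which bind the 5S ribosomal RNA and, when free, hold back the p53 inhibitor Mdm2, lay at 1259, 1681 and 1869 CPM and at 608, 672 and 808 CPM. Rpl5 was above Rpl11 in every library, although the 2 proteins enter the ribosome as one particle. Per kilobase of transcript the order of the means was the reverse, with 784 for Rpl5 and 835 for Rpl11. In library 2, however, Rpl5 was above Rpl11 on that scale too (822 against 807). Per kilobase of coding sequence Rpl5 was again above Rpl11, with means of 1799 and 1303.

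Above Rpl26 and Rps27, the lowest anaemia genes were Rps28, Rpl35a and Rpl35. The highest were Rpl5, Rpl31, Rps24 and Rpl15 (1244 ± 89.5 CPM). Between them lay Rpl9 at 784 ± 124, Rps15a at 720.1 ± 159, Rpl18 at 520.3 ± 62.9, Rps7 at 478 ± 81.5 and Rps10 at 469.6 ± 84.7 CPM. Rps29 was at 449 ± 78.9, Rps26 at 406 ± 67.9 and Rpl27 at 229 ± 28.9 CPM. The median over the T cell leukaemia genes Rpl10, Rpl5, Rpl11 and Rpl22 was 1150 CPM. Rps14, the gene of the 5q deletion, had 211, 240.2 and 250.4 CPM. It ranked low in its subunit, but its shift of -0.22 in library 1 was small beside that of the set.

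The stalk proteins, which recruit elongation factors to the large subunit, are made in different amounts: Rplp0 is the single anchor, and Rplp1 and Rplp2 bind to it as pairs. Rplp0 had 542, 755 and 796 CPM, Rplp1 231, 255 and 266 CPM, and Rplp2 338, 421 and 452 CPM. Per kilobase of transcript the order was Rplp2 at 899.6, Rplp0 at 514 and Rplp1 at 502, so Rplp0 and Rplp1 were close on that scale. All 3 were lowest in library 1.

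Subunit genes that the name rule leaves out lay in the range of the others. Rpsa lay at 1090 ± 106 CPM, Gnb2l1, which encodes the scaffold protein Rack1, at 618 ± 106 CPM, and Fau, whose product carries a small subunit protein, at 153 ± 30.2 CPM. All 3 were lowest in library 1 and highest in library 3.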

How the data were processed

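The values are raw read counts, whole numbers without normalization, that the authors deposited as 1 file of gene symbols per library. Per the labels' protocols, cDNA was made from 10 ng of RNA, primed at poly(A) tails and at random, and amplified. TopHat2 2.0.9, HTSeq, mm10 and DESeq2 are named in the submitters' processing notes (gene model, strand setting and HTSeq version: not given in the sources used here). How reads of overlapping genes were assigned is therefore not known. The ambiguous category of HTSeq held 0.666 to 0.800% of all entries.

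The 92 spike-in entries and 5 HTSeq category entries were left out of totals (gene entries were 34.1 to 40.0% of all entries). Counts were scaled to CPM on plain totals of gene counts. Logs used a pseudocount of 0.5, which understates differences of low genes. Genes whose mean reached 1 CPM were tested by chi-square over libraries and by an F test of the edgeR quasi-likelihood dispersion over its trend (intercept only, robust), at a Benjamini-Hochberg adjusted p under 0.05. Both were tested on simulated data. The changes simulated for the F test were far larger than the shifts of the subunit genes, so whether it could find shifts of that size was not tested. Positions, lengths and shared words came from GENCODE M21 (GRCm38, the assembly of mm10), which matched 93 of the 94 symbols; starts came from RefSeq.

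The members and lists were chosen with earlier results of these data known. Genes were named by rule: members at 0, the 6 highest and 4 lowest of each subunit, paralogs and parents, the disease, stalk and 5S particle lists, the 5 members of largest log2 range at 5 CPM or more, and the extremes of the other lists. Further names were picked once values were known. Some genes that the rule names are not reported here. Of 30 assembly factors 29 are listed. Alternatives were other scalings (TMM, DESeq2 size factors, totals without Rn45s or the members), pseudocounts, filters, word lengths, per-length levels and leaving out each library. Software was R 4.3.3 with edgeR 4.0.16 and DESeq2 1.42.0, plus SciPy 1.17.1, NumPy 2.4.6, pandas 2.3.3 and matplotlib 3.10.9 under Python 3.11.15.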

Additional observations from a re-analysis of the deposited data

Results flagged for a closer look

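The spike-in RNAs, which lie outside the gene entries, gave 455900, 239355 and 174913 counts in libraries 1, 2 and 3. They are listed because these entries were not used for the levels above and hold a clear signal in every library. How much was added is a point not given in the sources used here. Gene counts per spike-in count ran from 67.4 in library 1 to 172 in library 3.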

How the results depend on the processing

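No paired analysis was possible because the 3 libraries form a single group. The depth limits single low genes only: with 3 counts as floor, no count in a library still allows a level of 0.0977 to 0.120 CPM. The large minus small subunit difference (0.11) was 0.53 per kilobase of exons, 0.28 per kilobase of coding sequence, 0.20 over genes with under 50% of words shared, -0.13 with copies and paralogs and -0.47 without genes overlapping another gene. The number of all genes that differed by chi-square (10707) ran from 6660 to 8709 when a library was left out, lowest without library 1. The number more variable than the trend (1) was 16 without an expression filter, 30 by DESeq2 and 1 to 16 without 1 library. Of the subunit genes, 1 passed 1.5-fold in library 1. That number was 0 at 2-fold, with TMM factors, with DESeq2 size factors and without Rn45s. It was 2 without the members in the totals (with 9.13% of all genes) and 72 on the spike-in scale (with 87.5% of all genes). Without 1 library it was 0 to 5. In library 3 it was 0, then 72 on the spike-in scale (with 89.6% of all genes) and 0 to 5 without 1 library. Shares of all genes at 2-fold and without 1 library are not given here. The median shift of the subunit genes in library 1 was -1.34 on the spike-in scale, and in library 3 it was 1.32. In library 2 it was -0.0061 with DESeq2 size factors. Without 1 library the shift ran from -0.42 to -0.26 in library 1, from -0.16 to 0.26 in library 2 and from 0.16 to 0.42 in library 3. The cause of these changes was not tested. The share of gene counts and the number of genes at 0 kept their values within the spread between libraries in the alternatives run. So did the paralog shares when a library was left out. Per kilobase of transcript some paralog shares moved past that spread. Among them were Rpl22l1 (19.3 to 47.6%), Rpl36al (41.0 to 30.8%) and Rpl7l1 (8.39 to 5.17%).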
